A study of Mus musculus with 12 samples.

Results

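The interleukins and interleukin receptors outside the interleukin 1 and interleukin 6 groups were taken from a panel of 547 mouse genes measured with barcoded NanoString probes. They were chosen by symbol: of 57 genes whose symbol starts with Il and a digit, 12 were set aside (the interleukin 1 and interleukin 6 genes with their receptors, and Il18) and 45 were kept. Il18r1 and Il18rap, the receptor chains for interleukin 18, were kept because the rule names Il18 alone. The 45 genes were 24 ligands and 21 receptor chains or binding proteins. Only the 28 whose mean count reached 20 normalized counts were tested, 14 ligands and 14 receptors.

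The 12 libraries came from 12 male mice on a C57BL6-NJ background, 3 in each of 4 groups, and of the labels only the series title names the liver. Wild-type mice were compared with mice lacking sphingosine kinase 2 (SphK2), one of the enzymes that phosphorylate sphingosine, through a constitutive knockout. In each genotype 3 mice ate a control diet and drank normal water, and 3 ate a Western diet and drank sugar water, a regimen that models the early stage of fatty liver with inflammation known as MASH. Protocols give a start at 12 to 18 weeks of age and 16 weeks of feeding, which ends at 238 days at the latest. Labelled ages were 231 to 232 days in the wild-type control mice, 250 to 259 in the knockout control mice, 226 to 232 in the wild-type Western mice and 217 to 252 in the knockout Western mice. The labelled ages of every knockout control mouse and of 1 knockout Western mouse thus exceed what the protocol allows, and on the control diet genotype and age cannot be told apart.

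Interleukins are secreted proteins by which immune and tissue cells signal to one another through paired receptor chains on the cell surface. Many receptor chains are shared: the common gamma chain, Il2rg, serves interleukins 2, 4, 7, 9, 15 and 21, Il10rb serves interleukins 10 and 22 and the lambda interferons, and Il17ra serves several members of the interleukin 17 family. Most of these receptors signal through Janus kinases and STAT transcription factors, whereas the interleukin 17 receptors signal through the adaptor Act1. In the liver, interleukin 10 and its receptor are known for restraining Kupffer cells, the resident macrophages, interleukins 4 and 13 for type 2 immunity, and interleukin 33 as an alarm signal held in the nucleus of lining cells.

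The recovered whole counts came to 440842 to 643638 in a library. Sphk2 was not among the genes measured, so the knockout itself was not checked in the RNA, and of the 12 hepatocyte markers considered the 7 on the panel included no albumin or apolipoprotein gene. Those 7, complement and hepcidin genes among them, summed to 79992 to 229406 normalized counts in every library. A first principal component of the 453 tested genes held 58.9% of their variance. Wild-type Western replicate 2 lay at -5.59 on it, among the control-diet libraries at -6.65 to -3.76, while the other wild-type Western libraries lay at 1.13 and 5.29 and the knockout Western libraries at 10.3 to 11.6. Knockout control replicate 2 lay farthest out on the second component, at 8.996. Several results that rest on either library are given with and without it.

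Probe counts differed widely among the 45 genes. Il13ra1, a receptor chain that binds interleukin 13 and pairs with Il4ra, had the highest mean, 826 normalized counts over 12 libraries, followed by Il4ra, the chain that binds interleukin 4, at 476. Il10rb had a mean of 207, Il17ra of 197, Il17rb of 180 and Il15ra of 157, so the 6 members at or above 100 normalized counts were all receptor chains. The highest mean of a ligand was that of Il17f, at 58.3. Each probe has its own efficiency and no gene length entered, so this order is of probe counts and not of transcript numbers. Among neighbours in the order, Il10rb, Il17ra, Il17rb and Il15ra overlapped in their ranges over libraries, 141 to 325, 157 to 263, 95.9 to 231 and 126 to 186.

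**Figure D1:**
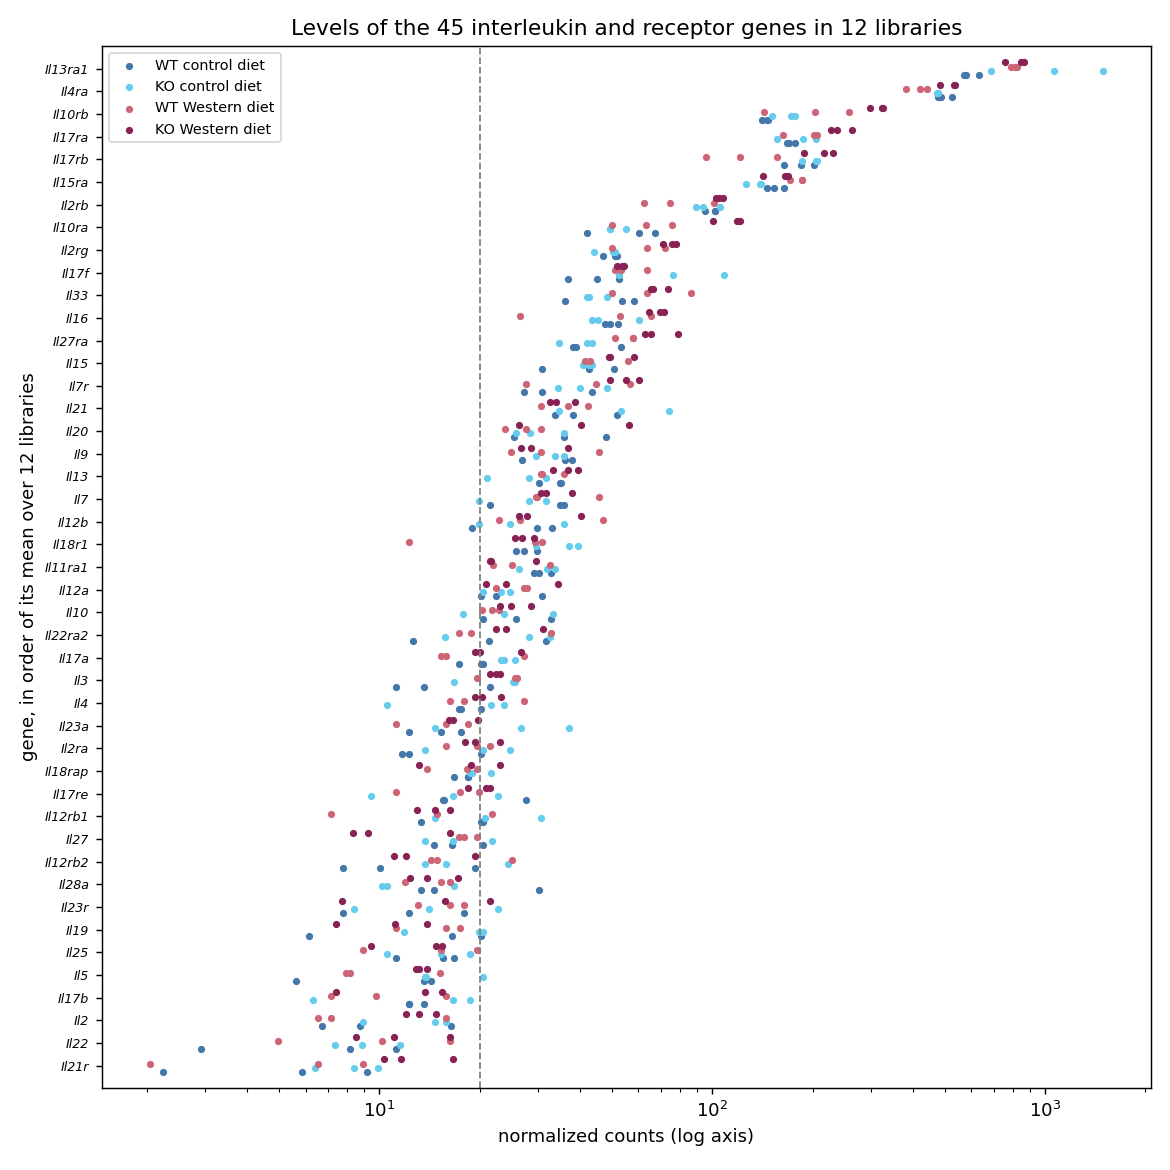
Normalized counts (log axis) of all 45 members, each point 1 of the 12 libraries coloured by group, with genes in the order of their mean and a dashed line at 20 normalized counts. Il13ra1 and Il4ra lie highest, the next 4 genes are also receptor chains with means above 100 normalized counts, and the 17 lowest genes have means under 20.

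On the Western diet, 5 of the 28 tested members were higher in the knockout than in the wild type and none was lower (limma, Benjamini-Hochberg adjusted over 453 genes, threshold 0.05). All 5 encode receptor chains: Il10ra and Il10rb, which together form the interleukin 10 receptor, Il17rb, which pairs with Il17ra to bind interleukin 25, Il17ra itself, and Il4ra. The 5 are 17.9% of the members, while 35.5% of all 453 tested genes were called, 32.2% higher and 3.31% lower. The members' share was thus below that of the panel, and their median log2 difference was 0.20 against 0.26 over all tested genes. Leaving out 1 library at a time moved the share of all tested genes called here from 18.5% to 39.1%. None of the 14 tested ligands passed, the smallest adjusted p among them being 0.106 for Il16.

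Il10ra, the interleukin 10 binding chain found mainly on leukocytes, stood at 60.4, 67.2 and 41.9 normalized counts in wild-type control libraries, 49.4, 54.9 and 49.4 in the knockout control, 75.5, 49.97 and 63.1 in the wild-type Western and 121, 118 and 100.4 in the knockout Western libraries. Every knockout Western library lay above all 9 others. The group means were 113 ± 11.2 (SD, n = 3) in the knockout and 62.9 ± 12.8 (SD, n = 3) in the wild type on the Western diet. The log2 difference was 0.85 (SE 0.20, limma adjusted p = 0.0102), and 0.70 (adjusted p = 0.0362) without wild-type Western replicate 2.

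Il10rb, the accessory chain that many cell types carry, stood at 147, 141 and 146 normalized counts in wild-type control libraries, 151, 177 and 173 in the knockout control, 257, 143 and 204 in the wild-type Western and 298, 325 and 324 in the knockout Western libraries. The knockout Western libraries again lay above the other 9. Wild-type Western replicate 2, at 143, lay within the range of the wild-type control libraries. The log2 difference between the genotypes on the Western diet was 0.69 (SE 0.17, limma adjusted p = 0.0130), and 0.46 (adjusted p = 0.0247) without wild-type Western replicate 2. The ligand of this receptor, Il10, had low group means of 26.3, 24.9, 21.7 and 25.5 normalized counts in wild-type control, knockout control, wild-type Western and knockout Western mice and passed in no comparison.

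Il17rb stood at 165, 201 and 185 normalized counts in wild-type control libraries, 205, 186 and 206 in the knockout control, 156, 95.9 and 121 in the wild-type Western and 189, 231 and 217 in the knockout Western libraries. The pattern differed from that of the interleukin 10 receptor: the 3 wild-type Western libraries were the lowest of the 12, and the knockout Western libraries overlapped both control-diet groups. The log2 difference between the genotypes on the Western diet was 0.79 (SE 0.16, limma adjusted p = 0.00574). Without wild-type Western replicate 2 it was 0.62 (adjusted p = 0.0132).

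Il4ra stood at 526, 486 and 477 normalized counts in wild-type control libraries, 476, 477 and 473 in the knockout control, 441, 381 and 420.2 in the wild-type Western and 536, 531 and 484 in the knockout Western libraries. As with Il17rb, the wild-type Western libraries were the 3 lowest of the 12. The log2 difference was 0.32 (SE 0.08, limma adjusted p = 0.0139). It was 0.26 (adjusted p = 0.0461) without wild-type Western replicate 2, and it turned to -0.24 after each library was recentred on its own median and to -0.05 after quantile normalization.

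Il17ra stood at 167, 170.1 and 177 normalized counts in wild-type control libraries, 157, 206 and 187 in the knockout control, 206, 163 and 201 in the wild-type Western and 228, 263 and 237 in the knockout Western libraries. The knockout Western libraries were the 3 highest of the 12. The log2 difference was 0.36 (SE 0.13, limma adjusted p = 0.0466), close to the threshold. It passed in 3 of 12 fits that each left out 1 library, those without knockout control replicate 1, knockout control replicate 2 or wild-type Western replicate 1, with differences of 0.25 to 0.42 over the 12. Without wild-type Western replicate 2 the difference was 0.25 (adjusted p = 0.175), with the header sample number as a block it did not pass either (adjusted p = 0.0615), and it turned to -0.21 after recentring on the library median and to -0.12 after quantile normalization.

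**Figure D2:**
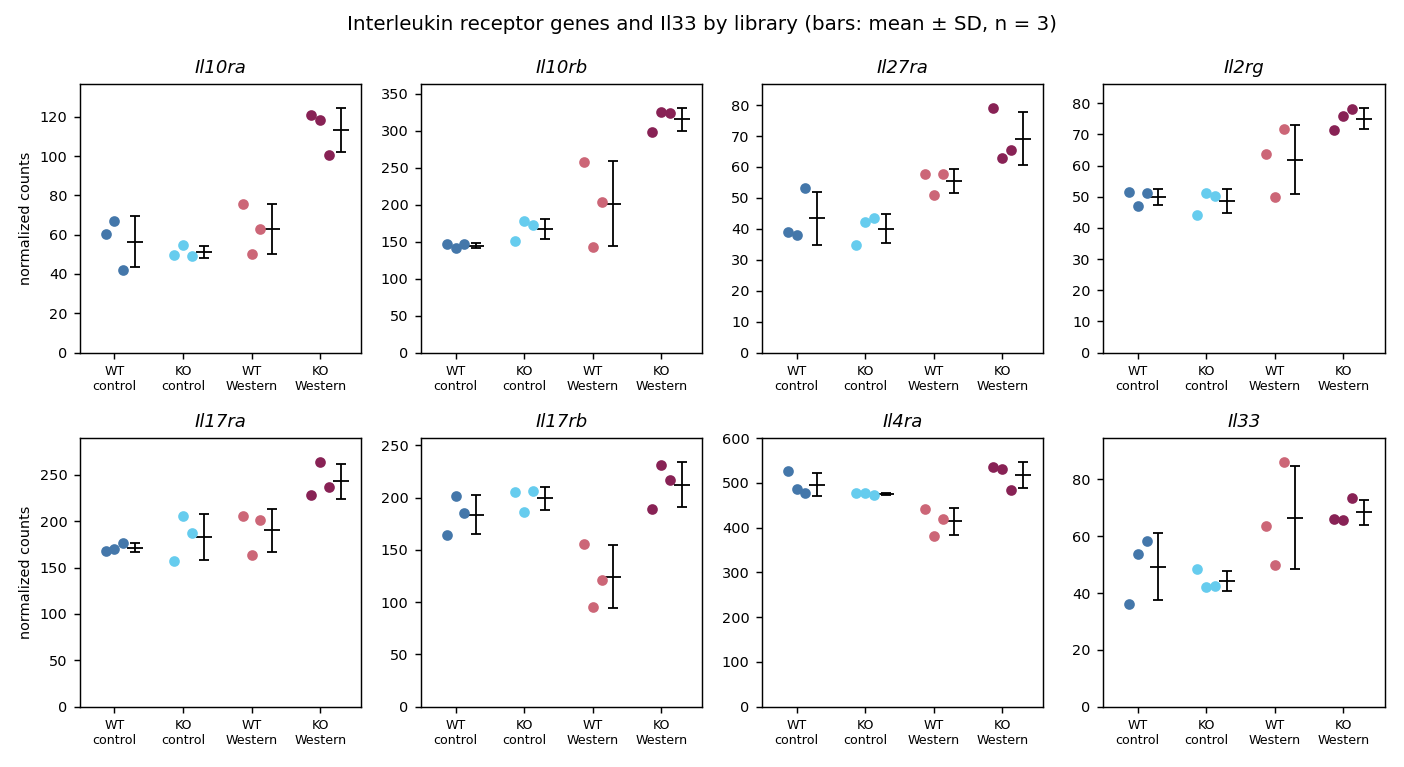
Normalized counts per library (points) of the 8 members that passed in at least 1 comparison, by group, with the mean and SD of 3 libraries. For Il10ra, Il10rb, Il27ra and Il17ra every knockout Western library lies above the other 9, while for Il17rb and Il4ra the wild-type Western libraries are the 3 lowest.

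The scaling mattered for all 5 calls, because the median log2 difference of all tested genes on the Western diet moved from 0.26 in the deposited scaling to 0.01 after recentring on the median ratio, -0.30 on the library median, -0.03 after quantile normalization and 0.17 after recentring on the panel's low genes. Il10ra, Il10rb and Il17rb stayed above 0 under each of these, and passed under the median ratio and the low-gene scaling but not under the library median or quantile scaling. On the library median none of the 5 passed and 5 other members were called lower (Il11ra1, Il13ra1, Il15ra, Il17f and Il21), where 26.5% of all tested genes were called lower and 5.52% higher. Under the library median Il10ra was at 0.29, Il17rb at 0.23, Il10rb at 0.12, Il17ra at -0.21 and Il4ra at -0.24, beside a panel median of -0.30. This recentring takes 1 constant from each library, so it cannot change how far a gene lies from the panel median. In the authors' deposited table of knockout against wild type, 33 of the 45 members are listed at 0 and 6 have an adjusted p under 0.05: the 5 called here and Il2rb, with a log2 fold change of 0.58 and an adjusted p of 0.0474.

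Markers of macrophages and monocytes also differed between the genotypes on the Western diet. Of 17 such genes 15 were on the panel and tested, and 13 were higher and 1 lower in the knockout on the Western diet, and their summed level was 8081 to 9137 normalized counts in the knockout Western libraries against 3327 to 6290 in the wild-type Western, 3983 to 4721 in the knockout control and 3616 to 3935 in the wild-type control. Of 12 tested T cell markers 1 was higher, with sums of 369.9 to 417 in the knockout and 338 to 397 in the wild type on the Western diet. For B cells 3 of 7 were higher, with sums of 359.9 to 416 against 228 to 307, for natural killer cells 1 of 5, with sums of 302 to 342 against 185 to 239.5, and for endothelium 4 of 5, with sums of 1165 to 1266 against 775 to 942. For dendritic cells all 3 tested were higher, with sums of 366 to 402 against 140 to 270.3. Of 8 genes listed for dendritic cells 4 were on the panel, and Itgax, among the 3 tested, is also on the macrophage list. For neutrophils 2 of 4 (S100a8 and S100a9) were higher, with sums of 802 to 851 against 219 to 385. Of 7 tested hepatocyte markers none was higher and 1 was lower. Of all 453 tested genes, 32.2% were called higher and 3.31% lower in this comparison. Whether any marker list differed from these shares was not tested. No gene of the panel was at 0 in any library. The part of these cell types in the receptor differences was not tested, and in whole-tissue RNA more cells of a type and more RNA per cell cannot be told apart.

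Among the 9 receptors that did not pass on the Western diet, Il2rb, the signalling chain for interleukins 2 and 15, was nearest, with control-diet means of 99.7 in the wild type and 96.2 in the knockout: on the Western diet the knockout libraries had 102, 104 and 107 normalized counts, the wild-type ones 74.5, 62.2 and 101.2. The log2 difference was 0.42 (limma adjusted p = 0.0643) with the genotypes just apart, and it was 0.61 and past the threshold without wild-type Western replicate 3. Il15ra, which holds interleukin 15 on the cell surface and presents it to neighbouring cells, was the one receptor whose knockout Western libraries, at 169, 142 and 165, all lay below the wild-type Western libraries at 171, 186 and 186. That log2 difference was -0.19 (limma adjusted p = 0.196). Il15ra was called lower, at -0.44, -0.75 and -0.77, after scaling on the median ratio, on the library median and by quantiles. In all, 9 members (32.1%) did not overlap between the genotypes on this diet, 8 higher and 1 lower, against 49.9% of all tested genes.

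**Figure D3:**
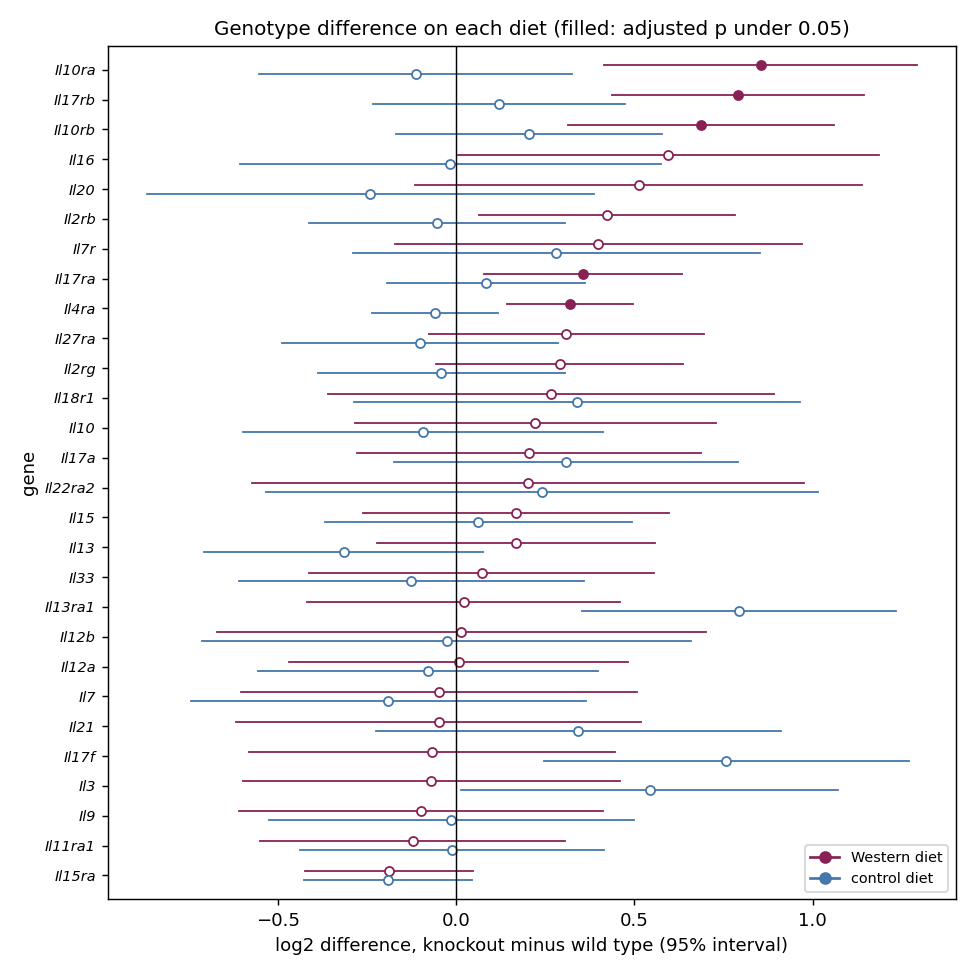
Log2 difference between knockout and wild type of the 28 tested members on each diet, with 95% intervals (not adjusted) and filled points for an adjusted p under 0.05. On the Western diet 5 members are filled and lie between 0.32 and 0.85, and on the control diet none is filled.

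The promoters of the members called in a comparison are shown where RefSeq held an entry (GRCm38.p6, 250 bases before to 50 after the annotated start, read 5′ to 3′ on the gene's strand), so that the sequence next to the start of these differing genes can be read. Capitals mark a match to a motif searched on both strands: TTC and GAA with any 3 bases between them, the spacing that many STAT proteins bind, TTC and GAA with any 4 bases between them, the spacing that STAT6 favours, and CCGGAAG, a core bound by ETS factors. Il17rb at chr14:30008847-30009146 on the minus strand and Il4ra at chr7:125552021-125552320 on the plus strand held none of the 3 motifs, and their GC contents were 72% and 62%. Il2rg at chrX:101268206-101268505 on the minus strand held the ETS letters and Il33 at chr19:29924863-29925162 on the plus strand the STAT6 letters. A second Il33 entry at chr19:29945540-29945839, not shown, held none of the 3 motifs.
Il17rb: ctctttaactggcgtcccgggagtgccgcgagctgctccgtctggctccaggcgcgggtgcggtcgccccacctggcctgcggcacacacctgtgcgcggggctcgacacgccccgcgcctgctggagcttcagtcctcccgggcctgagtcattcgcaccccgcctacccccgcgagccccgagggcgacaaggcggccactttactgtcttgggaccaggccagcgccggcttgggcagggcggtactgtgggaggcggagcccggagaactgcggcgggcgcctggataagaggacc
Il4ra: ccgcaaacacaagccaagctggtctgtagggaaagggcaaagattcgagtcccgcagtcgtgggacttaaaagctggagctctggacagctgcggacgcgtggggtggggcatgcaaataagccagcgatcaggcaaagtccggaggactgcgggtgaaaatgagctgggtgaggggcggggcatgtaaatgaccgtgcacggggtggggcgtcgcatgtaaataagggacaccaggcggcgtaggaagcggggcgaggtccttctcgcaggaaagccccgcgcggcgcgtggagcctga
Il2rg: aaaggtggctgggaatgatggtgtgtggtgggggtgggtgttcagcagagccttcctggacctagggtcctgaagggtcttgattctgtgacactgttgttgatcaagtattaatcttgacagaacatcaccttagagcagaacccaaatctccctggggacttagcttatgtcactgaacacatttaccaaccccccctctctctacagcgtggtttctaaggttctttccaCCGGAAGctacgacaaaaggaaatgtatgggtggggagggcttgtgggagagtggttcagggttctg
Il33: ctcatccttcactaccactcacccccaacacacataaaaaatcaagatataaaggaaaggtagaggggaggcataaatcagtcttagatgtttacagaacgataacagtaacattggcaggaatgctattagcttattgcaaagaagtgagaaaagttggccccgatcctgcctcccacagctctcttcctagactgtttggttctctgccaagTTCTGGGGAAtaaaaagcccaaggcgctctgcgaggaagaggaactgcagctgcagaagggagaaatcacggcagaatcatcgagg
Of the 45 members, 31 had a promoter entry. The motif with 4 bases between occurred for 8 of these 31 genes (Il3, Il4, Il9, Il12a, Il18r1, Il18rap, Il20 and Il33) and in 6.95% of all 32851 promoters in the table. The motif with 3 bases between occurred for 5 of 31 and in 8.3% of all, and CCGGAAG for 3 of 31 (Il2rg, Il15ra and Il20) and in 8.86% of all. Genes with more than 1 annotated start had more than 1 chance of a match, and a match is a match of letters only.

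On the control diet none of the 28 members differed between the genotypes after adjustment, where 2.87% of the 453 genes were called, 1.99% higher and 0.883% lower, and 3 had an unadjusted p under 0.05 by limma. The median log2 difference was -0.01 over the members and 0.07 over all tested genes. The genotypes did not overlap for 5 members (17.9%), against 23.8% of all tested genes. The 3 with the smallest p were Il13ra1, Il17f and Il3.

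Il13ra1 stood at 635, 580 and 569 normalized counts in wild-type control libraries and at 688, 1490 and 1066 in the knockout control libraries, without overlap but with the 3 knockout libraries far apart. Its wild-type Western libraries were at 812, 821 and 791 and its knockout Western libraries at 756, 862 and 846. The log2 difference between the genotypes on the control diet was 0.79 (SE 0.20, limma adjusted p = 0.0569). Without knockout control replicate 1 it was 1.08 (adjusted p = 0.000161), and without knockout control replicate 2 it was 0.53 (adjusted p = 0.144). After scaling on the median ratio, by quantiles or on the low genes it passed, at 0.74, 0.70 and 0.68.

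Il17f, an epithelial-acting relative of Il17a, stood at 52.6, 36.9 and 45.01 normalized counts in wild-type control libraries and at 52.6, 109 and 76.1 in the knockout control libraries, and knockout control replicate 2 was again the highest of the 12. The Western-diet libraries lay between 51.0 and 63.6 in both genotypes. The control-diet difference was 0.76 (limma adjusted p = 0.119), 1.02 (adjusted p = 0.00827) without knockout control replicate 1 and 0.50 (adjusted p = 0.323) without knockout control replicate 2. Il21, a follicular helper T cell product, had 34.7, 74.1 and 53.3 in the 3 knockout control libraries. Il23a, a subunit of interleukin 23, had 14.7, 37.0 and 26.7 in them. Il13ra1, Il17f, Il21 and Il23a thus had the same order of these libraries. That order was not particular to them: Il10, Il10rb, Il12b and Il17ra, among others, had it too, while Il4ra, Il10ra and Il17rb did not. Il3, a growth factor of mast cells and basophils, had 13.6, 11.2 and 21.5 in wild-type and 25.2, 25.5 and 16.8 in the knockout control libraries, which overlapped (log2 difference 0.54, limma adjusted p = 0.280).

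Summed levels of several marker lists had the same order in the 3 knockout control libraries. The summed level of 5 neutrophil markers was 301, 959 and 606 normalized counts in them and 166 to 206 in the wild-type control libraries, and that of the 7 hepatocyte markers was 107497, 229406 and 162932 against 110050 to 116982. Sums for macrophages and monocytes, T cells and dendritic cells had this order too. Those for natural killer cells, B cells and endothelium did not. Of the 4 tested neutrophil markers 2, S100a8 and S100a9, were higher in the knockout on the control diet, where 1.99% of all tested genes were called higher. The part of these cell types in the values of Il13ra1 and Il17f was not tested.

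In the wild type, 1 of the 28 members changed with the Western diet: Il17rb fell. The share of 3.57% stood beside 8.61% of all tested genes, 3.75% lower and 4.86% higher (0.662% to 20.8% in all when 1 library was left out). Il17rb fell by 0.58 on the log2 scale (SE 0.16, limma adjusted p = 0.0452), from 184 ± 18.5 to 124 ± 30.2 normalized counts (SD, n = 3 each), with every Western library below every control library. The call was lost in 11 of 12 fits that each left out 1 library and stayed without wild-type Western replicate 1. Without wild-type Western replicate 2 the difference was -0.41 (limma adjusted p = 0.0590). Over 19 other settings Il17rb passed in 8. Il4ra also had no overlap between the diets, with 414 ± 30.4 against 496 ± 26.1 (SD, n = 3 each), but its log2 difference of -0.26 did not pass (limma adjusted p = 0.0703).

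Il10rb and Il13ra1 had positive differences with the Western diet in the wild type that did not pass, 0.43 and 0.44 (limma adjusted p = 0.145 and 0.196). Without wild-type Western replicate 2, whose Il10rb count was that of a control library, the Il10rb difference was 0.66 (adjusted p = 0.00369). Il15ra was at 146, 153 and 164 in the control and 171, 186 and 186 in the Western libraries of the wild type, again without overlap, with a log2 difference of 0.23 (limma adjusted p = 0.212), and its knockout control libraries were at 139, 126 and 140.3. In all, 4 members (14.3%) did not overlap between the diets in the wild type, against 28% of all tested genes.

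In the knockout, 6 of the 28 members rose with the Western diet and none fell. They were the chains of the interleukin 10 receptor Il10ra and Il10rb, the interleukin 27 receptor chain Il27ra, the common gamma chain Il2rg, Il17ra, and 1 ligand, Il33. The members' share was 21.4%, against 45.3% of all tested genes, 37.3% higher and 7.95% lower, and their median log2 difference was 0.21 against 0.27 over all. The directions depended on scaling and on 1 library: the median ratio gave 3 members higher and 5 lower (Il11ra1, Il13ra1, Il17f, Il18r1 and Il21), quantile normalization 1 higher and 8 lower, and leaving out knockout control replicate 1 gave 5 higher and 3 lower (Il13ra1, Il17f and Il21). Under the same settings 21.2%, 23.8% and 12.6% of all tested genes were called lower. This comparison and the genotype comparison on the Western diet share the knockout Western libraries.

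Il10ra rose by 1.13 on the log2 scale (SE 0.20, limma adjusted p = 0.000953), from 51.2 ± 3.17 to 113 ± 11.2 normalized counts (SD, n = 3 each). Il10rb rose by 0.91 (SE 0.17, limma adjusted p = 0.00122), from 167 ± 13.9 to 316 ± 15.2 (SD, n = 3 each). These were the largest rises among the 28 members, both groups being fully apart, and each passed in all 12 fits that left out 1 library. On the library median neither passed, at 0.37 and 0.16, and after quantile normalization Il10ra did not, at 0.38.

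Il27ra, which pairs with Il6st to bind interleukin 27 and is carried mostly by lymphocytes and myeloid cells, stood at 38.9, 38.1 and 53.2 normalized counts in wild-type control libraries, 34.7, 42.1 and 43.5 in the knockout control, 57.6, 51.0 and 57.7 in the wild-type Western and 79.0, 62.8 and 65.6 in the knockout Western libraries. The knockout Western libraries were the 3 highest of the 12. Il27ra rose by 0.77 in the knockout (SE 0.18, limma adjusted p = 0.00418). It did not pass on the library median, at 0.01, after quantile normalization, at 0.17, or with age as a covariate, at 0.70. Its difference between the genotypes on the Western diet, 0.31, did not pass (adjusted p = 0.196).

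Il2rg stood at 51.6, 47.0 and 51.1 normalized counts in wild-type control libraries, 44.2, 51.1 and 50.4 in the knockout control, 63.6, 49.97 and 71.9 in the wild-type Western and 71.3, 75.8 and 78.0 in the knockout Western libraries. Knockout Western libraries lay above both control-diet groups but overlapped the wild-type Western ones. Il2rg rose by 0.62 in the knockout (SE 0.16, limma adjusted p = 0.00754). Recentring on the library median turned the value to -0.14 and quantile normalization to -0.01, where the median of all genes in this comparison was -0.49 under the first.

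Il17ra rose by 0.41 in the knockout (SE 0.13, limma adjusted p = 0.0195). It did not pass without knockout control replicate 1 (0.30, adjusted p = 0.0741) or without knockout Western replicate 2 (0.35, adjusted p = 0.0760). It turned to -0.35 after recentring on the library median and to -0.06 after quantile normalization.

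Il33 stood at 36.0, 53.7 and 58.3 normalized counts in wild-type control libraries, 48.4, 42.1 and 42.5 in the knockout control, 63.6, 49.97 and 86.0 in the wild-type Western and 66.2, 65.6 and 73.4 in the knockout Western libraries. The diets were apart in the knockout and overlapped in the wild type. Il33 rose by 0.62 in the knockout (SE 0.22, limma adjusted p = 0.0382). This call was lost in 5 of the 12 fits that left out 1 library, those without knockout control replicate 2 or 3 or without any of the 3 knockout Western replicates, with adjusted p values of 0.0739 to 0.111, and the value turned to -0.14 after recentring on the library median.

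With age as a covariate 2 of the 6 calls in the knockout passed, Il10ra and Il10rb, where 20.3% of all tested genes were called. Of 15 tested macrophage and monocyte markers 13 were higher with the diet in the knockout and 2 lower. Each of the 5 tested endothelial markers was higher, and 5 of 7 hepatocyte markers were lower. All 3 tested dendritic cell markers, 2 of 5 natural killer cell markers and 2 of 7 B cell markers were higher. No T cell marker of 12 tested and no neutrophil marker of 4 tested passed. Of all tested genes 37.3% were called higher and 7.95% lower, and whether any marker list differed from these shares was not tested. The part of these cell types was not tested. With the 6 calls among them, 12 members in all were higher in every knockout Western library than in every knockout control library. Only 1, Il18r1, was lower in each (log2 difference -0.36, limma adjusted p = 0.32). Together these were 46.4% of the members, against 57.6% of all tested genes.

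**Figure D4:**
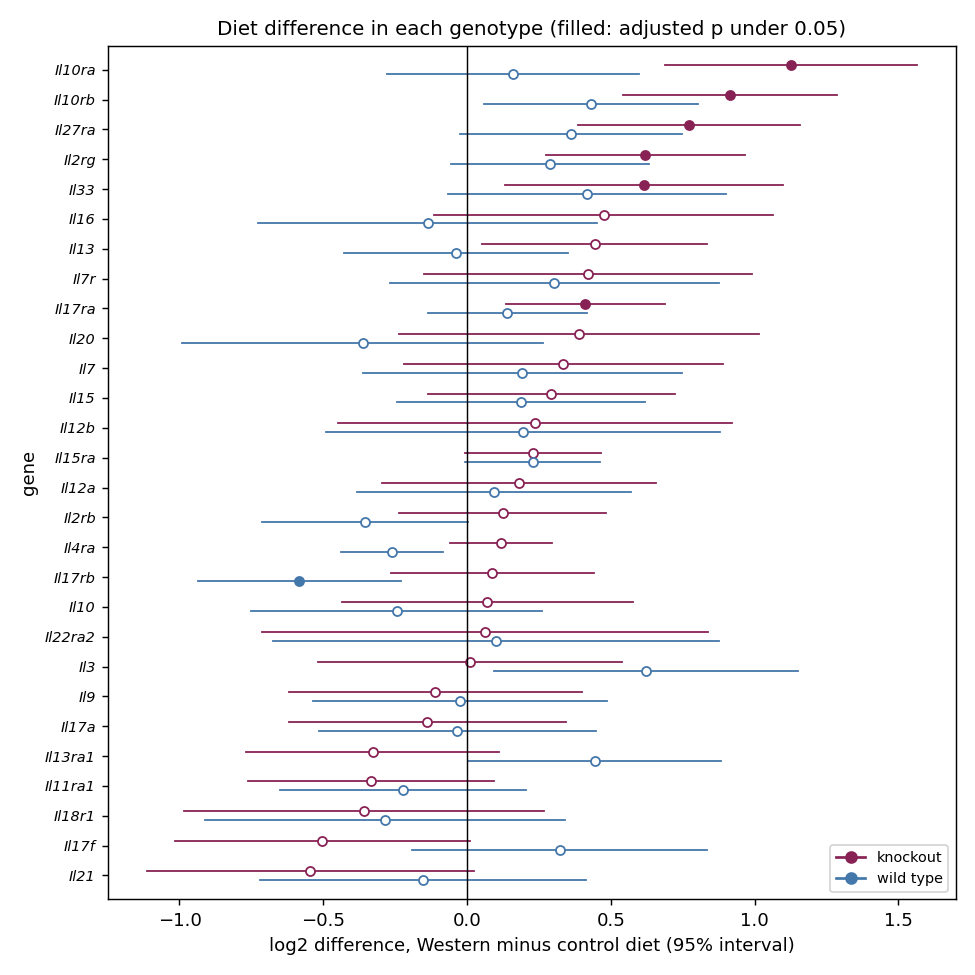
Log2 difference between Western and control diet of the 28 tested members in each genotype, with 95% intervals (not adjusted) and filled points for an adjusted p under 0.05. Il10ra and Il10rb lie highest in the knockout, at 1.13 and 0.91, and Il17rb is the one filled point in the wild type, at -0.58.

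Whether the diet difference itself differed between the genotypes was tested as an interaction, and no member passed, where 1.32% of all tested genes did, 1.1% higher and 0.221% lower, and 5 members had an unadjusted p under 0.05 by limma. The smallest p values were those of Il10ra, with a log2 difference of differences of 0.97 (SE 0.28, limma adjusted p = 0.0603), Il4ra, with 0.38 (SE 0.11, limma adjusted p = 0.0622), and Il17rb, with 0.67 (SE 0.23, limma adjusted p = 0.0828). So calls made in 1 genotype alone, such as those of Il27ra, Il2rg and Il33, were not shown to differ between the genotypes. The count depended on 1 library, as did that of all tested genes: without wild-type Western replicate 1 there were 4 calls, Il10ra at 1.11, Il10rb at 0.68, Il17rb at 0.85 and Il4ra at 0.43, which is 14.3% of the members beside 22.1% of all tested genes. Without knockout control replicate 1 there were 2, Il13ra1 at -1.06 and Il17f at -1.08, beside 12.8% of all tested genes, and over the 12 such fits the share of all genes ran from 0.221% to 22.1%.

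**Figure D5:**
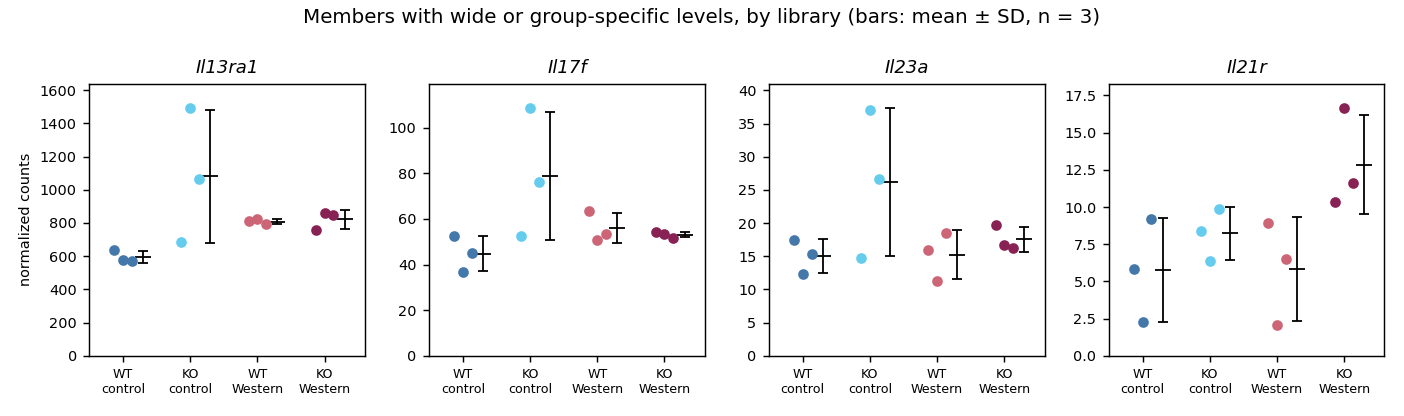
Normalized counts per library (points) of Il13ra1, Il17f, Il23a and Il21r by group, with the mean and SD of 3 libraries. Knockout control replicate 2 is the highest library for the first 3, and for Il21r, which is under the test's minimum, the knockout Western libraries at 10.3 to 16.6 lie above the other 9.

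The remaining tested members passed in no comparison, and their levels follow in the order wild-type control, knockout control, wild-type Western and knockout Western, as means of 3 libraries in normalized counts. Of the ligands that signal through the common gamma chain, Il15, a survival factor of natural killer and memory T cells, had 41.3, 42.3, 46.6 and 52.2. Il7, made by stromal cells for lymphocyte survival, had 30.7, 26.6, 35.0 and 33.3, and Il9, a product of helper T cells and innate lymphoid cells, had 33.6, 33.0, 33.7 and 30.7. Il21 had 41.1, 54.0, 36.6 and 35.1, with 1 knockout control library at 74.1. The receptor chain for interleukin 7, Il7r, had 33.9, 40.9, 43.0 and 54.8, the highest in the knockout Western mice, with a genotype difference on that diet of 0.40 (limma adjusted p = 0.262).

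Il13, the type 2 cytokine that binds Il13ra1, had 33.3, 26.9, 32.4 and 36.6, and its difference of 0.44 with the diet in the knockout did not pass (limma adjusted p = 0.0610). Among members of the interleukin 10 family, Il20, which acts on epithelium, had 36.4, 29.9, 27.3 and 41.0, and Il22ra2, a secreted protein that captures interleukin 22, had 21.9, 25.5, 23.0 and 25.8. The subunits of interleukin 12, Il12a and Il12b, had 24.4, 22.8, 25.8 and 26.4 and 27.3, 26.8, 32.1 and 31.5. In each of these 4 the genotypes overlapped on the Western diet.

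Il17a, the founding member of its family, had 19.3, 24.1, 19.5 and 22.0, and Il17f, its neighbour 42649 bases away on chromosome 1, had 44.8, 79.1, 56.0 and 53.2. Il18r1 had 27.6, 35.3, 24.1 and 27.2. Il11ra1, the interleukin 11 receptor, had 30.7, 30.6, 26.5 and 24.2, and Il3 had 15.4, 22.5, 23.6 and 22.3. Il16, a ligand of CD4 that T cells hold as a precursor, had 49.7, 49.6, 48.2 and 68.7, and its genotype difference of 0.60 on the Western diet was 0.86 and past the threshold without wild-type Western replicate 3.

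Precision followed the counts by the medians of count bands, though the bands overlapped. The SE of a log2 difference had a median of 0.24 (0.18 to 0.35) in the 12 members with means of 20 to under 40 normalized counts. It was 0.21 (0.16 to 0.27) in the 10 with 40 to under 100 and 0.14 (0.08 to 0.20) in the 6 at or above 100. Il13ra1, with the highest mean, had an SE of 0.20. The 17 members below 20 were Il2, Il4, Il5, Il17b, Il19, Il22, Il23a, Il25, Il27, Il28a, Il2ra, Il12rb1, Il12rb2, Il17re, Il18rap, Il21r and Il23r. Their means ran from 8.17 for Il21r to 19.6 for Il4. The median of the panel's 94 genes under 20 was 12.2 to 16.8 per library. Fitted without the minimum, none of the 17 passed in any comparison by limma, and Il21r and Il27 had an unadjusted p under 0.05 for the genotype on the Western diet, Il23a for the genotype on the control diet and Il27 for the diet in the knockout. The summed level of the 17 was 237 to 248 in the wild-type control, 209 to 313 in the knockout control, 210.1 to 290 in the wild-type Western and 243 to 271 in the knockout Western libraries, and these ranges overlapped.

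By family, 2 of the 5 tested members of the interleukin 10 family were called higher in both comparisons that hold the knockout Western libraries. Of all tested genes, 32.2% were called higher by genotype on the Western diet and 37.3% with the diet among knockout mice. Whether any family differed from these shares was not tested. Of 4 tested in the interleukin 17 family 2 were higher by genotype on the Western diet and 1 rose with the diet in the knockout, and Il17rb fell with the diet in the wild type. Of 9 tested gamma chain ligands and receptors 1 was called in each of these comparisons, Il4ra and Il2rg. Of 3 tested in the interleukin 12 family none differed by genotype and 1, Il27ra, rose with the diet in the knockout, as did 1 of 2 tested relatives of interleukin 1, Il33. Neither of the 2 tested members for interleukin 13 passed.

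Genes that act beside or below these receptors were taken as a list of 28 kinases, transcription factors, inhibitors and partner chains, of which 25 were on the panel and 21 were tested. On the Western diet 7 were higher in the knockout and none of the 21 was lower by limma. Of all tested genes 32.2% were called higher and 3.31% lower there. The largest difference was that of Csf2rb, the beta chain shared by the receptors for interleukins 3 and 5 and GM-CSF, at 1.12, followed by Jak3, the kinase bound to the common gamma chain, at 0.70, and Crlf2, a receptor chain for TSLP, at 0.61. Stat2 was at 0.55, Stat5b at 0.33, Jak2 at 0.26 and Stat6 at 0.25, and these 4 turned below 0 after recentring on the library median, Jak2 and Stat6 also after quantile normalization and Stat6 also after recentring on the median ratio. With the diet in the knockout Csf2rb, Ebi3 and Jak2 rose, by 0.99, 0.74 and 0.48, and Stat3 fell by 0.61. In that comparison 37.3% of all tested genes were called higher and 7.95% lower. The rises of Ebi3 and Jak2 turned below 0 on the library median. On the control diet Stat3 was higher in the knockout, at 0.54, where 1.99% of all tested genes were called higher. In the wild type Cish, an inhibitor induced by STAT5, rose by 1.66 with the Western diet, where 4.86% were called higher. No gene of the list passed in the interaction, where 1.32% of all tested genes did.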

How the data were processed

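RNA of 12 mice was measured with target-specific barcoded probes, per the labels' protocols. The authors deposited log2 normalized counts, per the file headers and the values. The sources used here do not say how the authors set each library's factor, but 2 to the power of each value was a whole multiple of 1 factor per library for 100% of values (tolerance 0.01), so whole counts could be recovered. The authors' deposited table also gives p-values and log2 fold changes for 1 comparison. A series-wide value table holds the same log2 values shifted by 1 animal against the workbook, and the workbook was used because its headers name animal, diet and genotype.

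Linear values plus a pseudocount of 1 were log2-transformed again, a scale on which fold changes of low genes are understated. Genes averaging 20 normalized counts or more were fitted with limma 3.58.1 in R 4.3.3 over all 12 libraries, with a mean per group and a variance trend. Two-sided p-values were adjusted by Benjamini-Hochberg over 453 genes in each of 5 comparisons, and the fit was tested on simulated data. The smallest p of an exact permutation test of 3 mice against 3 is 0.1, so single genes were not permuted. Groups came from the sample descriptions, replicate numbers follow deposited order, and labelled diet durations of 16 to 27 weeks, which run with that order, were not used. Each p-value weighs a group difference against the spread between mice within groups, pooled over the 4 groups and moderated across genes. Having 3 mice per group limits the precision.

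Every tested member is named with its group levels, and members that passed, or the 3 with the smallest p where none passed, with full values. Members, lists and rules were chosen with earlier results of these data known. Results of some genes of the signalling list are not reported here, and its counts leave them out. The alternatives concerned scaling, pseudocount, low-value filter, variance model, covariates, value source and left-out libraries, and those with the header sample number as a block, with voom on recovered counts and recentred on low genes were chosen after seeing the data. Promoters are from RefSeq GRCm38.p6, and all 45 members matched its gene table by gene ID, where Il28a has the symbol Ifnl2.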

Additional observations from a re-analysis of the deposited data

Results flagged for a closer look

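Il21r, the receptor chain for interleukin 21, lay under the minimum for testing, with a mean of 8.17 normalized counts, and was left out of the reported comparisons. Its 3 knockout Western libraries, at 10.3, 16.6 and 11.6 normalized counts with a mean of 12.8, nevertheless each lay above the other 9 libraries, which ran from 2.04 to 9.88. The median of the panel's low genes was 14.7 to 15.03 in the knockout Western libraries and 12.2 to 16.8 over all 12. Fitted without the minimum, its difference between the genotypes on the Western diet was 1.15 (SE 0.47, limma adjusted p = 0.0859), and it passed in none of the 5 comparisons. The gene lies 23777 bases from Il4ra on chromosome 7.

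Il4ra drew attention because the order of the libraries by diet was opposite in the 2 genotypes: each wild-type Western library lay below each wild-type control library, and each knockout Western library above each knockout control library. The diet difference was -0.26 in the wild type (limma adjusted p = 0.0703) and 0.12 in the knockout (limma adjusted p = 0.248), so neither passed. It was 0.38 higher in the knockout than in the wild type on the log2 scale, and this interaction did not pass (limma adjusted p = 0.0622).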

How the results depend on the processing

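No paired analysis was possible because replicate numbers only follow deposited order. The header sample number, which sets the third replicate of each group apart, was fitted as a block. It left 4 calls with the genotype on the Western diet, without Il17ra, beside 32% of all tested genes. The scaling decided most: the number of called members with the genotype on the Western diet, 5 as deposited, was 1 (lower) after quantile normalization, 3 after recentring on low genes, 4 (3 higher, 1 lower) after the median ratio and 5, all lower and none shared, on the library median. Under these settings, in the same order, 21%, 27.8%, 24.7% and 32% of all tested genes were called. With the diet in the knockout, 6 became 15, all lower, on the library median (of 28, beside 51.2% of all genes lower), 8 (5 lower) after the median ratio and 9 (8 lower) after quantiles. The median ratio and quantiles called 45% and 41.9% of all tested genes there, 21.2% and 23.8% lower. With the genotype on the control diet, 0 became 1 after the median ratio, 1 after quantiles and 1 after low genes. Beside these, 4.64%, 5.08% and 3.09% of all tested genes were called. In the interaction, 0 became 2 after the median ratio, 2 on the library median, 1 after quantiles, 2 after low genes and 2 with a minimum mean of 50. Of all tested genes 8.17%, 9.05%, 6.18%, 11% and 12.7% were called under these settings, in the same order. With the diet in the wild type, 1 became 2 after the median ratio, 3 on the library median, 2 after quantiles and 2 with a minimum mean of 50. The shares of all tested genes were 8.39%, 12.6%, 9.27% and 14.4%. This wild-type count became 0 with no filter, a minimum of 10, no variance trend, an equal-variance test or age. It was also 0 with the sample number block, after low genes and with voom. In these settings 3.97% to 7.28% of all tested genes were called. With only the groups of the comparison the 1 call was Il13ra1 and not Il17rb. Without wild-type Western replicate 2 and knockout control replicate 2 together it was Il10rb. Age as a covariate left 2 calls with the diet in the knockout, beside 20.3% of all tested genes. The series-wide value table, shifted by 1 animal, gave 0 calls in the 3 comparisons that had any, and 0% of all tested genes were called. Why the other settings changed counts was not tested.

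Leaving out 1 library at a time gave 4 to 6 calls with the genotype on the Western diet, 0 to 2 on the control diet, 0 to 1 with the diet in the wild type, 4 to 8 in the knockout (3 of the 8 lower) and 0 to 4 in the interaction. In the same order, the share of all tested genes ran from 18.5% to 39.1%, 1.32% to 9.49%, 0.662% to 20.8%, 36.4% to 46.8% and 0.221% to 22.1%. Turned signs on the library median and after quantiles were, by genotype on the Western diet, Il4ra at -0.24 and -0.047 and Il17ra at -0.21 and -0.12; with the diet in the knockout, Il2rg at -0.14 and -0.012 and Il17ra at -0.35 and -0.062; and in the interaction, Il4ra at -0.10 and -0.00016. Il33 turned to -0.14 on the library median and to -0.27 in the value table, where Il13ra1 and Il17f on the control diet turned to -0.017 and -0.0090. The median SE of a log2 difference was highest, at 0.24, in members with means of 20 to under 40 normalized counts, though the count bands overlapped.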
